A study of Mus musculus with 15 samples.

Results

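The Mmp9 upstream site is the 1 RevErb binding site that the authors assigned to Mmp9, out of 1544 sites shared by the nuclear receptors RevErbalpha and RevErbbeta in mouse macrophages. It was found as the row of the table of shared sites whose assigned gene is Mmp9 (NM_013599), and no other shared site has that assignment. On mouse build mm9 it covers chromosome 2 from 164768385 to 164768541, a window of 157 bp. Its centre is 5288 bp before the transcription start of Mmp9, per the authors' distance, and the authors' class is intergenic enhancer, which stands for high H3K4me1 with low H3K4me3. It is 1 of 556 sites of that class. The gene values belong to 1 of 1220 gene IDs with a shared site.

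Mmp9 encodes gelatinase B, a secreted zinc protease that cuts denatured collagens and basement membrane collagen and that macrophages release as an inactive proenzyme. RevErbalpha and RevErbbeta are repressors of the circadian clock that lack an activation domain and recruit the corepressor NCoR. Active enhancers are themselves transcribed into short capped RNAs, and the study asked whether RevErbs lower that transcription as well as the output of the neighbouring gene.

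Binding was measured by pull-down on streptavidin beads in RAW cells, a mouse macrophage line, that carried biotin-tagged RevErbalpha or biotin-tagged RevErbbeta. A BirA library from control RAW cells served as background. BirA is the ligase that adds biotin, and the column is named BirA-input, so it may hold an input library instead. Capped 5' ends of nascent RNA were read by 5'GRO-seq in RAW cells with tagged RevErbalpha and in BTEV-Ctrl RAW cells. Nascent RNA was read by GRO-seq in bone marrow derived macrophages of C57Bl6 mice with both floxed RevErb genes and Tie2-Cre (DKO) and in macrophages with the same floxed alleles and no Cre (WT). Tie2-Cre is active in endothelial and blood cells, and the ages of the mice are not given in the sources used here. Each group was 1 sample, so no difference below has a replicate check and none has a p-value. The table gives 3 binding runs for each RevErb and 2 gene-level runs for each genotype, which were counted as repeat runs of 1 sample.

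Depth ran from 598490 to 5276592 tags in the binding runs, against 10548880 tags in BirA. In 5'GRO-seq it was 7238710 tags with tagged RevErbalpha and 18708148 in control cells, and gene-level GRO-seq runs held 34852907 to 46649008. Of 13 listed macrophage marker symbols, of which Emr1 and Adgre1 name the same gene, 6 had a shared site and hence gene values. Csf1r, the M-CSF receptor gene, had log2 values of 12.52 and 12.71 in DKO runs and 12.71 and 12.33 in WT runs. Cx3cr1, a fractalkine receptor gene, differed most (1.65, higher in DKO), Cd14 was higher by 0.15 in DKO with no overlap of runs, and runs overlapped in Csf1r, Fcgr1, Itgb2 and Tyrobp. None of 5 listed markers of other cells had a shared site. The targeted gene Nr1d1, which encodes RevErbalpha, read 9.44 and 9.56 in the runs labelled DKO and 7.91 and 7.48 in those labelled WT. Since the signal is summed over the gene, it is no check of the deleted part, and the genotypes are taken from the labels. The columns name no treatment, but the header also names libraries treated with KLA or by serum shock. Whether a run came from treated cells is thus not known.

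Other shared sites lay in the wider neighbourhood of the Mmp9 site. In the order of protein-coding genes of assembly GRCm38.p6 the gene sits between Zfp335 and Slc12a5. Within 1 Mb to either side there were 4 other shared sites. The nearest, 75.6 kb away, was assigned to Pltp, a phospholipid transfer protein, and had a mean log2 binding of 5.18 over both proteins, against 9.11 at the Mmp9 site. On the other side, 390 kb away, was a site assigned to Elmo2, an engulfment and cell motility gene, with 7.90. The other two, about 500 kb away, were assigned to Sdc4, a surface proteoglycan, with 4.91 and 5.30. The Mmp9 and Elmo2 sites were thus far more strongly bound than the Pltp and Sdc4 sites.

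**Figure D1:**
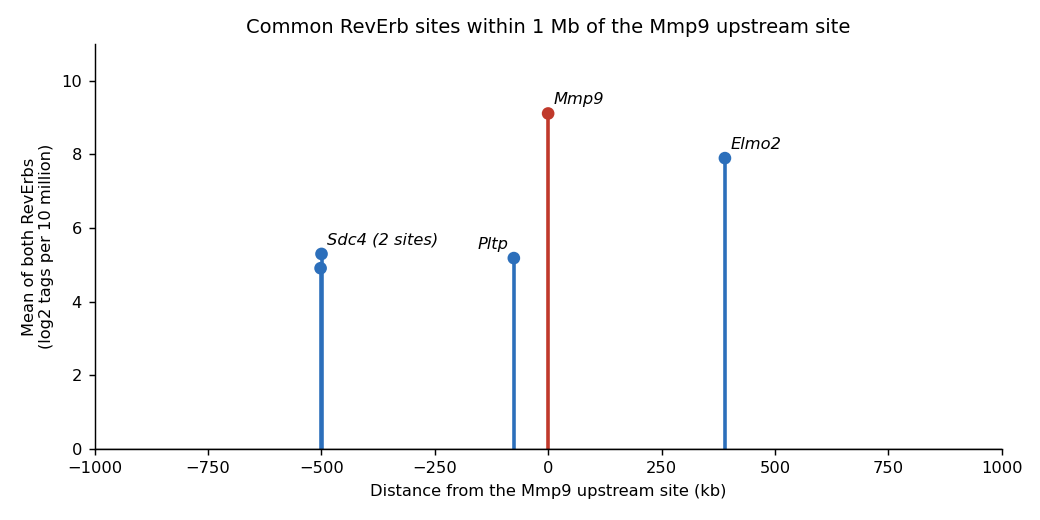
Shared RevErb sites within 1 Mb of the Mmp9 upstream site; the x axis is the distance from that site in kb and the y axis is mean binding of both proteins in log2 tags per 10000000. The Mmp9 site (9.11, red) and the Elmo2 site (7.90) rise above the Pltp site (5.18) and the 2 Sdc4 sites (4.91 and 5.30).

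The first comparison asked how strongly each RevErb bound the site. Values are log2 of tags in the 157 bp, scaled to 10000000 tags. RevErbalpha read 8.30, 9.51 and 9.71 in its 3 runs and RevErbbeta 9.41, 8.92 and 8.82, against 2.09 in BirA. Each RevErb run lay far above the BirA library. The mean was 9.17 ± 0.76 for RevErbalpha and 9.05 ± 0.32 for RevErbbeta (SD over 3 runs of 1 sample), which is 7.08 and 6.96 above BirA. Depth differed widely behind these values. They stand for about 165 or 166, 49 and 49 or 50 tags in the RevErbalpha runs and about 253 to 255, 235 to 237 and 35 tags in the RevErbbeta runs, against about 3 tags in BirA.

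The order of sites gave the Mmp9 site a high place in both proteins. For RevErbalpha it ranked first of 556 intergenic enhancer-like sites in all 3 runs and second of all 1544 sites by the mean. For RevErbbeta it ranked 3rd, 7th and 4th of the 556 in the runs, second of them by the mean and 10th of all 1544. Its BirA value was also on the high side, at place 31 of 556, with 94.4% of them lower. Its excess over BirA, 7.02 for the mean of both proteins, was close to the median excess of 6.89 among the 20 intergenic enhancer-like sites nearest to it in mean binding. Those 20 sites, used below as sites of like binding, ran in mean binding from 7.44 to 8.84, so every one was bound more weakly.

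RevErbalpha was 0.12 above RevErbbeta at the Mmp9 site, which is less than the spread between runs. At the 20 sites of like binding the same difference ran from -1.67 to 0.23 with a median of -0.64, and it was above 0 at 2 of them. Over all intergenic enhancer-like sites it was above 0 at 184 of 556 (33.1%). The order of the proteins at the Mmp9 site depended on the shallow runs: with the deeper runs alone, RevErbalpha was 0.87 below RevErbbeta (8.30 against a mean of 9.17).

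**Figure D2:**
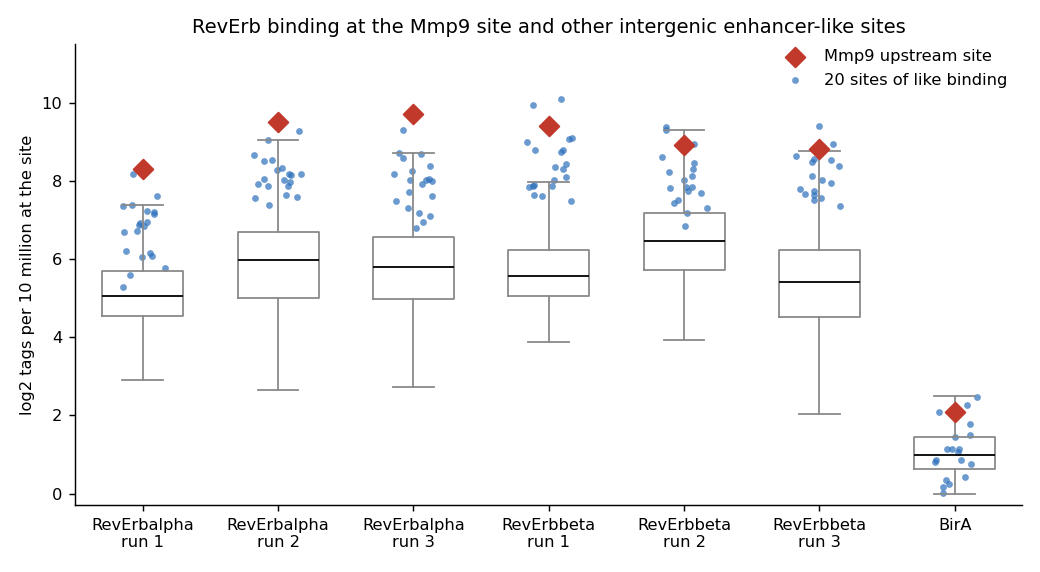
Binding at intergenic enhancer-like sites in each of 7 libraries, in log2 tags per 10000000 in 157 bp; boxes show the quartiles of the other 555 sites with whiskers to 1.5 times the box, blue points the 20 sites of like binding, and red diamonds the Mmp9 site. The diamond is the highest of these points in the 3 RevErbalpha runs (8.30, 9.51 and 9.71) and takes place 3 or 4 among them in the RevErbbeta runs.

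The second comparison asked whether capped nascent RNA at the site differed when tagged RevErbalpha was present. At the Mmp9 site 5'GRO-seq read 2.62 with tagged RevErbalpha and 5.99 in control cells, in log2 tags per 10000000 over 500 bp, a log2 difference of -3.37. The value stands for 3 tags in the tagged library and 116 or 117 in the control library. Scaled for depth, this is 4.14 tags per 10000000 (exact Poisson 95% interval 0.855 to 12.1) with tagged RevErbalpha and 62.0 to 62.5 (51.2 to 75.0) in control cells. The intervals do not overlap, and they cover counting error only. In these bulk libraries, fewer transcribing cells and less RNA per cell cannot be told apart. The low count limits the size of the difference: with 10 in place of 1 added before the logarithm it was -2.26.

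Signal at the site in control cells was ordinary, and signal with tagged RevErbalpha was low. Of the 556 intergenic enhancer-like sites 42.8% had less 5'GRO-seq signal than the Mmp9 site in control cells, where the median was 6.31. With tagged RevErbalpha 13.5% had less, and the median was 6.08. By the difference, the Mmp9 site was 7th from the bottom among these 556 sites and 20th from the bottom among all 1544.

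Among the sites of like binding the Mmp9 site had the lowest difference. Of the 20 sites, 10 were lower by 1 or more on the log2 scale with tagged RevErbalpha and none was higher by that much; lower by 1 or more were 20.0% of all shared sites and 17.1% of the intergenic enhancer-like ones, and higher by as much 4.92% of all. The median difference over the 20 was -1.11, against -0.23 over all shared sites. The nearest to the Mmp9 site in this order were the sites of Edn1, the gene of the vasoconstrictor endothelin, with 3.52 in tagged and 6.43 in control cells, and of Dnttip2, with 3.80 and 6.64. Elmo2, the neighbour on chromosome 2, had 0.96 and 3.60, from 0 and 20 tags. These 3 sites differed by -2.91, -2.84 and -2.64. The tagged library held 7 tags at Edn1 and 9 at Dnttip2, against 3 at Mmp9, and the Poisson intervals of these tagged values overlap. The order of the lowest sites is therefore imprecise. A count of 0 in the tagged library allows up to 5.10 tags per 10000000 (exact Poisson 95% upper bound), so the difference at Elmo2 depends on the 1 added before the logarithm.

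The other end of the order held sites with little signal in either library. The Itga8 site, at an integrin gene, read 1.23 and 0.31 in tagged and control cells and the Ranbp6 site 0.46 and 0.51, and both had 0 tags in each library. The Ube2g2 site, at a ubiquitin conjugating enzyme gene, read 0.65 and 0.99, from 0 and 1 tags. For 9 of the 20 the tagged library had at most 3 tags, so single differences there are imprecise. At 9 of the 20 the Poisson interval of the tagged library lay wholly below that of the control library. Those with the larger counts included Cx3cr1, with 42 and 482 to 485 tags, and Nlrp3, the inflammasome sensor gene, with 46 and 306 to 308. Trim8, with 114 or 115 and 419 to 422 tags, was also among them at a difference of only -0.50. This count was not made over all shared sites, so it is not read as a trait of these 20.

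**Figure D3:**
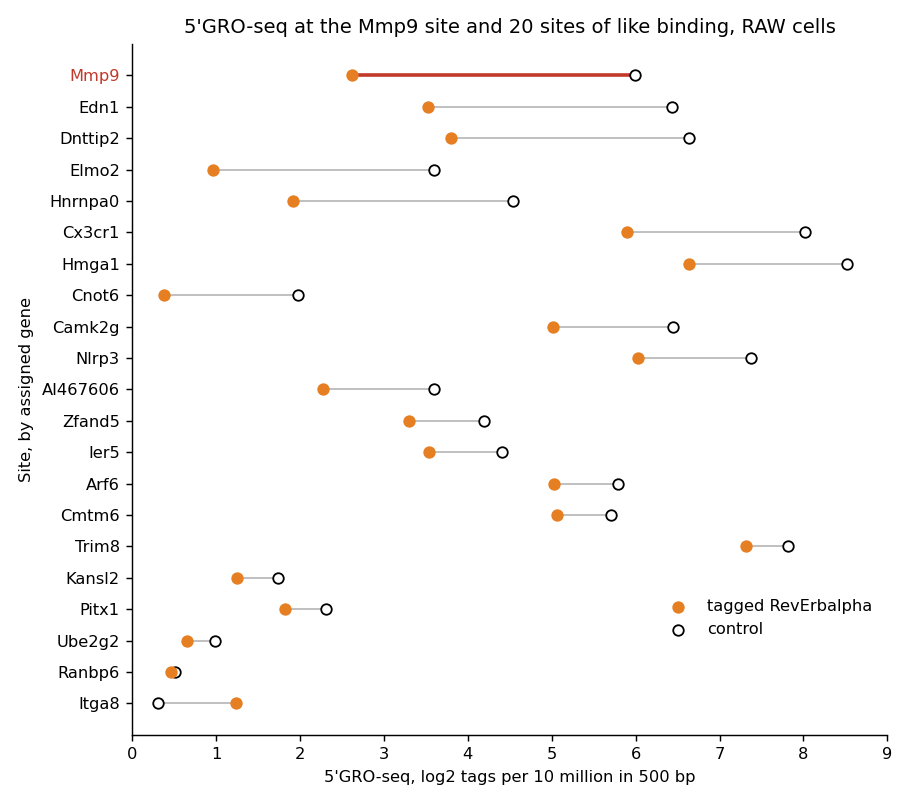
5'GRO-seq in RAW cells with tagged RevErbalpha (orange) and control RAW cells (white) at the Mmp9 site and the 20 sites of like binding, in log2 tags per 10000000 in 500 bp, ordered by the difference. The Mmp9 site, at the top, has the widest gap (2.62 against 5.99), and the Itga8 site, at the bottom, is the 1 site of the 20 with the higher value in tagged cells.

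The Mmp9 site was also set against sites like it in position or in signal level. Among the 106 other intergenic enhancer-like sites within 10 kb before a gene start, 22 (20.8%) were lower by 1 or more with tagged RevErbalpha, near the 17.1% of all intergenic enhancer-like sites. The lowest difference was -3.00, so none reached the value of the Mmp9 site. These sites had a median binding of 5.51 and at most 8.63. Among 194 sites whose control signal was within 1 log2 unit of that at Mmp9, 37 (19.1%) were lower by 1 or more, again near 17.1%, and 3 had a lower difference than Mmp9. These 3 were assigned to Cd44 (-4.45), Sulf2 (-3.73) and Atp6v1b2 (-3.56). CD44 is a hyaluronan receptor on which the MMP9 protein can dock, and this site, at -46660 bp from the gene start, had a binding of 6.30. Its value in tagged cells was 0.74, near the floor, so the size of its difference depends on the 1 added before the logarithm. Another Cd44 site, at -42625 bp, read 5.82 in tagged and 6.27 in control cells, a difference of -0.45.

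By all 11 library columns at sites together, the most similar intergenic enhancer-like sites were those of AI467606, Zfand5, Dnttip2, Edn1 and Ier5. Their Euclidean distances from the Mmp9 site were 3.26, 3.49, 3.72, 3.93 and 4.45 on the log2 scale, against a median of 10.5 over 555 sites. All 5 are among the sites of like binding, which the distance used in part. The AI467606 site, at -11259 bp from the gene start, had a binding of 8.49 and a 5'GRO-seq difference of -1.33, from 2.27 in tagged and 3.60 in control cells.

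The third comparison asked whether nascent RNA at the site differed between genotypes in bone marrow derived macrophages. GRO-seq at the Mmp9 site read 1.99 in the library labelled DKO and 1.66 in WT. The authors give 1 log2 value per genotype, read here as their mean of 2 runs. The difference was 0.33, and it was 0.09 with 10 added before the logarithm. Signal was low in both: 25.2% of the intergenic enhancer-like sites read lower in WT, where the median was 3.12, and 29.7% read lower in DKO, where it was 3.20. The number of tags behind these values is unknown.

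The Mmp9 site was in the middle of the sites of like binding by this measure, at place 11 of 21 from either end. Of the 20 sites, 5 were higher by 1 or more in the library labelled DKO and 1 was lower by that much, where 3.37% of all shared sites were higher and 2.20% lower. The 5 were the sites of Dnttip2 (4.61 in DKO and 2.58 in WT), Elmo2 (3.68 and 1.99), Kansl2 (3.30 and 1.62), Ranbp6 (1.82 and 0.42) and Cx3cr1 (5.58 and 4.20). The 1 lower site was that of Hmga1, a chromatin protein gene, with 2.58 in DKO and 3.61 in WT. Signal was low at the 20 sites, with a WT median of 2.15 against 3.68 over all shared sites. These counts of higher and lower sites were not repeated with 10 added before the logarithm, so they may depend on low signal. The Mmp9 site, with the lowest 5'GRO-seq difference of the set, was in neither group.

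The fourth comparison asked whether the Mmp9 gene itself differed between genotypes. Over the gene, GRO-seq read 7.82 and 8.36 in the runs labelled DKO and 7.71 and 6.07 in the WT runs, in log2 signal that is not scaled to gene length. The DKO runs lay above the WT runs, but the lowest DKO run exceeded the highest WT run by 0.11. In order the runs were DKO run 2, DKO run 1, WT run 1 and WT run 2. DKO run 1 and WT run 1 differed by less than the 2 DKO runs did (0.54), and WT run 2 stood apart from the rest.

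The means were 8.09 in DKO and 6.89 in WT, a log2 difference of 1.20. This was the 4th highest of 1220 genes, after Nr1d1 (1.81), Cx3cr1 (1.65) and Tspan33 (1.42). Counted as higher were genes with a difference of at least 0.5 and no overlap of runs, which held for Mmp9 and for 24 genes in all, or 1.97% of 1220; 0.738% were lower by the same rule. The difference of 1.20 is smaller than the gap of 1.64 between the 2 WT runs. Without WT run 2 it was 0.38, below the size needed, and Mmp9 was then 83rd of 1220. Without WT run 1 it was 2.02 and first.

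**Figure D4:**
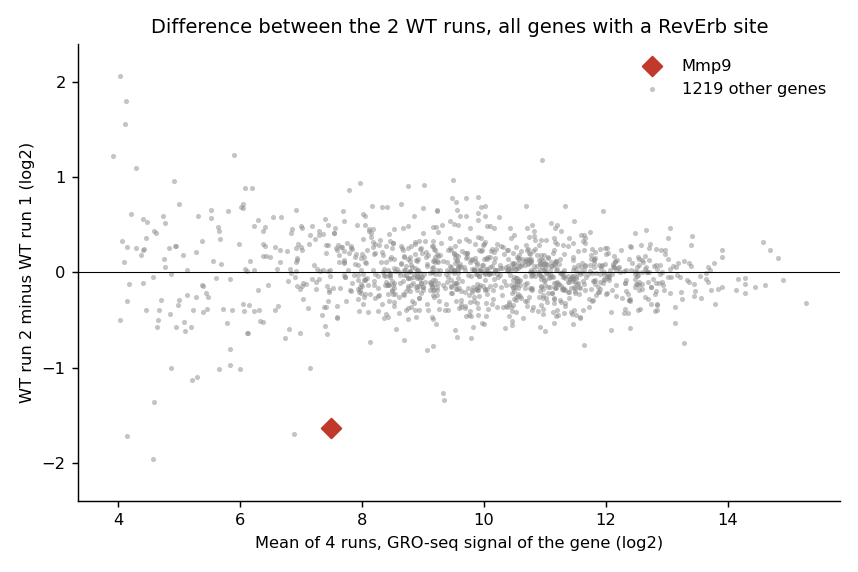
Difference between the 2 WT runs (WT run 2 minus WT run 1, log2) against the mean of the 4 gene-level GRO-seq runs for 1220 genes with a shared site. Mmp9 (red, -1.64) lies outside the band that holds nearly all genes at its level.

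The gap between the WT runs of Mmp9 was wide for a gene of this level. It was the 6th widest of 1220, where the median gap was 0.17. The DKO runs of Mmp9 had a gap of 0.54, place 77 of 1220, with a median of 0.15. Among 205 other genes with a mean within 1 log2 unit of Mmp9 (7.49), the median gap between WT runs was 0.22, and 1 gene had a wider one. That gene was Clec4n, a C-type lectin receptor gene named here after its values were seen, which read 7.10 and 6.95 in DKO runs and 7.60 and 5.90 in WT runs. Of those 205 genes 3 were counted as higher and 3 as lower, where 1.97% of all 1220 genes were higher and 0.738% lower. The WT runs also differed from each other at other genes, named here after their values were seen. A gap between 2 runs does not show which run is the unusual one. WT run 2 was below WT run 1 at the lipid exporter gene Abca1 (a log2 difference of -0.74) and at the chemerin receptor gene Cmklr1 (-1.34). It was above WT run 1 at the thymidylate synthase gene Tyms (0.74) and the cell cycle factor gene E2f2 (0.78). It was also above WT run 1 at the fractalkine receptor gene Cx3cr1 (0.97), a macrophage marker. These genes are examples picked by their values, so they do not show which kinds of genes differed. Of the 6 macrophage markers with values, 5 were lower in WT run 2 than in WT run 1, and Cx3cr1 was the exception. A lower value in WT run 2 was also found for 9 of the 14 matrix genes, Mmp9 among them, and 3 of the 7 transcription factor genes listed below. The share of all genes with a lower value in WT run 2 was not counted, so these counts are not read as a trait of the lists. Over all 1220 genes the median of WT run 2 minus WT run 1 was -0.01. The part of these differences in the Mmp9 result was not tested.

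At the genes assigned to the 20 sites of like binding, differences between genotypes were small. They ran from -0.38 to 1.65 with a median of 0.11, against 0.04 over all 1220 genes. By the rule 1 of the 20 genes was higher and none was lower, where 1.97% of all genes were higher and 0.738% lower. The 1 gene was Cx3cr1, with 10.24 and 10.40 in DKO runs and 8.19 and 9.16 in WT runs. The Edn1 gene read 7.05 and 7.31 in DKO and 6.72 and 6.96 in WT, and Dnttip2 8.87 and 8.87 in DKO and 8.90 and 9.04 in WT. The Elmo2 gene read 11.43 and 11.51 in DKO and 11.14 and 11.17 in WT, without overlap and with a difference of 0.31. Of the 10 sites of like binding that were lower by 1 or more in 5'GRO-seq, 1 had a gene that passed the rule (Cx3cr1) and 9 had genes that did not.

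Mmp9 was compared with a list of other proteases, protease inhibitors and partners, called matrix genes here for short. Of 52 listed genes 14 had a shared site, Mmp9 among them, and of the other 13 none was counted as higher or lower between genotypes. With 1.97% of all genes higher and 0.738% lower, a count of 0 is near the background. Their differences ran from -0.18 to 0.38 with a median of 0.19. Mmp19, a matrix metalloprotease gene, had the highest of these, with 8.04 and 8.21 in DKO runs and 7.79 and 7.71 in WT runs. Adam17, the sheddase that frees TNF, read 11.48 and 11.59 in DKO runs and 11.33 and 11.26 in WT runs. Mmp14, a membrane protease that activates other metalloproteases, overlapped, with 8.85 and 9.33 in DKO runs and 8.97 and 8.82 in WT runs. In Cd44, Cst3, Ctsd, Ctss, Furin, Plat, Plau and Serpinb9 DKO and WT runs overlapped. Plaur, the urokinase receptor gene, was the 1 gene of the 13 with both DKO runs below both WT runs, with 9.27 and 9.46 in DKO and 9.52 and 9.58 in WT. Both DKO runs were above both WT runs in 3 of the 13 (Mmp19, Adam17 and Ctsk, which encodes the collagen-cutting cathepsin K), where this held for 18.4% of all genes and the reverse for 10.0%.

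The sites of these genes were bound less than that of Mmp9. Over the 18 other sites of the list, mean binding ran from 4.05 to 7.34, and the highest was the Adam17 site. With tagged RevErbalpha 5'GRO-seq was lower by 1 or more at 3 of the 18 (sites of Cd44, Serpinb9 and Mmp14) and higher by 1 or more at 1 (a Plaur site), near the shares of all shared sites (20.0% lower and 4.92% higher). The median difference was 0.05. At the sites of the other listed Mmp genes, Mmp14 had 1.04 in tagged and 2.18 in control cells, little signal in either, and Mmp19 had 6.18 and 5.57.

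Genes of transcription factors listed for the Mmp9 promoter, such as AP-1 and Ets members, came next. Of 18 such genes 7 had a shared site, and none was counted as higher or lower between genotypes, again near the shares of all genes (1.97% and 0.738%). Their median difference was 0.20. Jun, an AP-1 subunit gene, had both DKO runs (10.27 and 10.53) above both WT runs (9.95 and 9.98), and so had Runx1, a blood cell factor gene, with 14.68 and 14.65 in DKO and 14.63 and 14.50 in WT. This was the case for 2 of the 7 genes and for 18.4% of all genes. Runs overlapped in Atf3, Ets2, Fosb, Fosl2 and Fos, the last the gene of the AP-1 partner of Jun, with 9.84 and 10.62 in DKO and 9.95 and 9.78 in WT. Of the 14 sites of these genes 1 was lower by 1 or more in 5'GRO-seq with tagged RevErbalpha, a Fosl2 site with 2.56 in tagged and 4.19 in control cells, where 20.0% of all shared sites were.

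**Figure D5:**
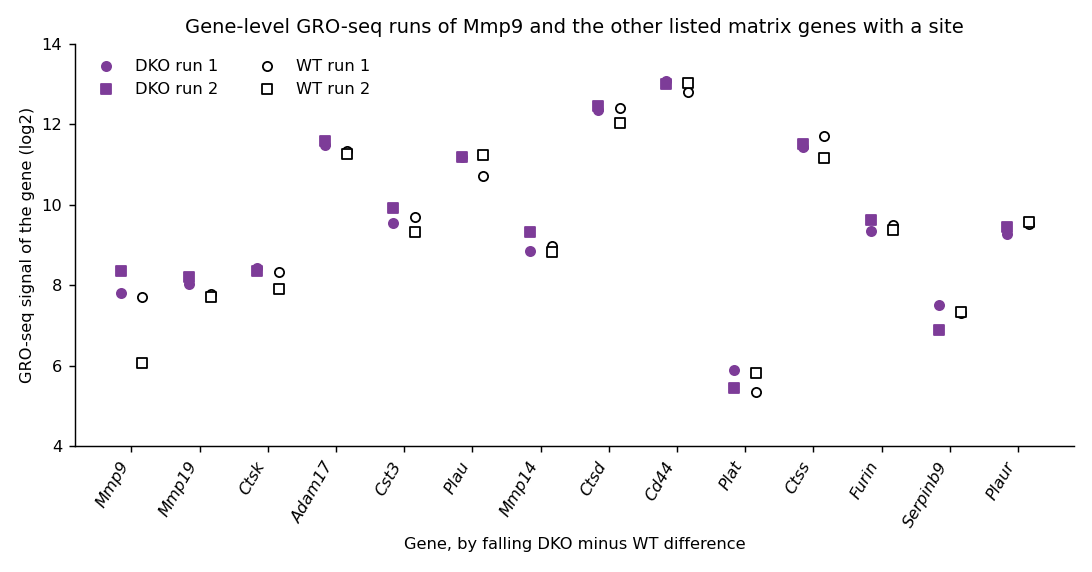
Gene-level GRO-seq signal (log2, not scaled to gene length) in each run labelled DKO (purple) and WT (white) for Mmp9 and the 13 other listed matrix genes with a shared site, ordered by the difference. The gap between the WT runs of Mmp9 (7.71 and 6.07) is the widest gap shown between 2 runs of 1 genotype, and the other genes have DKO and WT runs close together or overlapping.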

How the data were processed

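The authors deposited a table of log2 values at 1544 shared sites. Per the file headers, values at sites are tags in 157 bp (ChIP-seq) or 500 bp (5'GRO-seq) scaled to 10000000, and GRO-seq values are log2 signal. Per the submitters' processing notes the build was mm9 and the tools were HOMER and Bowtie 0.12.7. Low values were not on steps of whole tags, as if a random part below 1 tag and then 1 had been added, so count models were not used. Tag numbers in the text are the whole numbers that fit this reading. GRO-seq values at sites had finer steps than single runs and were read as the authors' mean of both runs. Treated libraries stand in the header too.

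Runs were averaged on the log2 scale (Python 3.11.15, pandas 2.3.3, numpy 2.4.6, SciPy 1.17.1). Like binding meant the 20 intergenic enhancer-like sites nearest in the mean of both proteins. A site was counted at a difference of 1, a gene at 0.5 with no overlap of runs. Named were the 5 nearest sites in binding, both ends of their 5'GRO-seq order, the 5 most similar by Euclidean distance, sites within 1 Mb and listed genes with a site; other names were chosen after their values were seen. Members and lists were chosen with earlier results of these data known. The gene rule and the choice of sites were run on simulated data as a check of the code. Noise there had the same spread for every gene, so the check does not cover a gene with runs as far apart as Mmp9. Intervals are exact Poisson 95%. H3K9ac, H3K4me1 and PU.1 libraries were not analysed here. Counts for the matrix list leave out 1 gene, which is not reported here.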

Additional observations from a re-analysis of the deposited data

How the results depend on the processing

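The 5'GRO-seq difference at the Mmp9 site and the GRO-seq difference there kept their direction and their side of a difference of 1 when 10 was added before the logarithm or the median of all sites was subtracted. RevErbalpha binding was 8.91 to 9.61 and RevErbbeta binding 8.87 to 9.17 with 1 run left out, and the deepest RevErbalpha run alone gave 8.30. The Mmp9 gene difference was 0.38 to 2.02 with 1 run left out, and it fell short of 0.5 without WT run 2. The share of like sites lower by 1 or more in 5'GRO-seq was 42.0 to 58.3% with 10 or 50 sites, 1 protein alone or a filter on low signal, and 35.0% with 10 added (chosen after the data were seen). The Mmp9 site was then at place 2 from the bottom with 50 sites and at the bottom in the others. With genic sites in the set the share was 80.0%, and the Mmp9 site was at place 3 from the bottom; the cause was not tested. With 1 run left out, 33 to 67 genes were counted as higher in the library labelled DKO and 17 to 27 as lower, since 1 run overlaps less often. A difference of 1 left 7 and 2. A filter at the lower quartile of level left 7 and 1 of 915 genes and removed Mmp9. Within 1 log2 unit of the Mmp9 level, a limit chosen after the data were seen, 4 of 206 genes were higher and 3 lower. The shares over all 1220 genes were 1.97% and 0.738%. No paired analysis was possible because each group has 1 sample in the labels, and the run numbers of the columns are not stated to pair the genotypes. By number, DKO minus WT at the Mmp9 gene was 0.11 for run 1 and 2.29 for run 2. The 3 tags in the tagged library and the unknown depth of GRO-seq at the site limit those differences.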
